A study of Mus musculus with 10 samples.

Results

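Blood RNA of mice kept under sleep deprivation (SD) for 24 h was set against blood RNA of mice kept for the same 24 h under a sleep restriction method reported earlier (SASD). These were 2 of the 10 libraries of the series, chosen by their column in the count table: one labelled SD at 24 h and one labelled SASD at 24 h. All mice were C57/BL6J, with no transgene or drug named in the labels, and each library pooled RNA from the blood of 3 mice of a group. The other 8 libraries held a control at 0 h (Con), SD at 6, 12 and 48 h, and SASD at 6, 12, 48 and 120 h, also 1 pooled library each. The sources used here do not give how SD and SASD were carried out, the hour of the bleed, or the age of the mice, and the pentobarbital given before the eye-vein bleed was common to all groups. With 1 library a side there was no replicate spread, so ratios are given with a 95% counting interval (exact, Clopper-Pearson), which covers counting error only, and without a p-value.

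The labels name the cells as leukocytes, but the libraries held RNA of the other blood elements as well. Ptprc, which encodes the leukocyte antigen CD45, stood between 1353 and 2246 CPM (counts per 1000000 of the TMM-scaled library total) in the 10 libraries, and at 1913 CPM in SD 24 h and 1606 CPM in SASD 24 h. The 4 adult haemoglobin genes took 5.64% of the counts of SD 24 h and 6.96% of those of SASD 24 h. They took between 4.20% and 6.505% in the 6 and 12 h libraries and 3.57% in SASD 120 h, but 0.727% of the control library and 0.316% and 0.275% of SD and SASD at 48 h. The 24 h pair thus belonged to the haemoglobin-rich libraries on both sides, while Con and the 48 h pair stood apart. SD 24 h held 11141786 counts in total, and SASD 24 h, with 7825120, was the shallowest of the 10 libraries, the deepest of which had 27501393. Both pools held Y-linked RNA, with 1609 and 1019 counts of Ddx3y, and Xist, expressed from the inactive X of females, had 0 and 4 counts. Because this is bulk RNA, fewer cells of a type and less RNA per cell cannot be told apart in anything that follows.

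Blood carries short-lived neutrophils, which kill microbes with granule enzymes and S100 proteins, and 2 kinds of monocytes: classical cells that enter inflamed tissue by way of CCR2, and nonclassical cells that patrol the vessel wall. Platelets and young red cells have no nucleus and live on RNA packed into them by their megakaryocyte and erythroblast parents. The amount of their RNA in a sample therefore follows how many of them, and how young ones, are in the tube.

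The genes at the centre of the comparison are introduced by the sequence just before their start site. These are the 120 bases upstream of the RefSeq start (GRCm38.p6, 5′ to 3′ on the strand of the gene) of 2 genes that were higher under SD and 3 that were lower. They lie at chr3:90668951-90669070 on the plus strand (S100a8), chr3:90695722-90695841 on the minus strand (S100a9), chr11:102469884-102470003 on the minus strand (Itga2b), chr6:87777950-87778069 on the plus strand (Gp9) and chrX:150547297-150547416 on the plus strand (Alas2). Capitals mark any match, on either strand, to the GATA motif AGATAA, the C/EBP motif TTNNGCAA or the PU.1 motif GAGGAA; no 2 of the capital stretches overlap.
S100a8: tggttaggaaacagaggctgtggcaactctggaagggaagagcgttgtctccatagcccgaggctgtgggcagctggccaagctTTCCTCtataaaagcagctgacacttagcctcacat
S100a9: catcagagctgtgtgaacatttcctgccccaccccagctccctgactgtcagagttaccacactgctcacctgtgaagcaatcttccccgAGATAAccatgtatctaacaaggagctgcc
Itga2b: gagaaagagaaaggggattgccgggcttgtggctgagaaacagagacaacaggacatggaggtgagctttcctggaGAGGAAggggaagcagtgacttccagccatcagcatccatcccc
Gp9: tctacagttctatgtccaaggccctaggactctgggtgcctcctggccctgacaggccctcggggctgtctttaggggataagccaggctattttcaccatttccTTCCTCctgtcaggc
Alas2: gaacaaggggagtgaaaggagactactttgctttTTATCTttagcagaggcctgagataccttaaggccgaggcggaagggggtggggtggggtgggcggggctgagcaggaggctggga
The S100a8, Itga2b and Gp9 stretches each hold a PU.1 match, and those of S100a9 and Alas2 a GATA match. The same stretch was read for 6 more genes: those of Lrg1, Ppbp and Treml1 and of 2 of the 3 Epb41 starts held no match, and those of Pf4, Gp1ba and the other Epb41 start a PU.1 match. Over 250 bases upstream, the GATA letters were present in 9.99%, the C/EBP letters in 9.56% and the PU.1 letters in 23.3% of 32851 RefSeq promoters. Among 392 promoters of the genes at least 2-fold higher under SD the shares were 9.18%, 13.3% and 31.6%. Among 308 promoters of the genes at least 2-fold lower they were 8.77%, 5.52% and 22.4%. The 11058 promoters of all tested genes gave 6.09%, 7.61% and 23%. A match describes the letters and is not a binding site.

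Of 32285 genes in the table, 11135 (34.5%) reached a mean of 25 counts or more over the 24 h pair. At least 2-fold higher under SD were 418 (3.75% of those tested), and at least 2-fold lower 343 (3.08%). The counts of 2-fold genes in every list below are to be read against these shares. The median log2 ratio of all tested genes was 0.030. The higher genes made up 54.9% and the lower genes 45.1% of the 761. Without the TMM scaling factor, on library totals alone, all ratios moved up by 0.195 on the log2 scale, and the same rule gave 718 higher (80.6%) and 173 lower genes (19.4%). The balance of both directions therefore rests on the scaling, single values are TMM-scaled, and a list median between -0.195 and 0 turns positive on library totals. Just inside the 2-fold line were Wdfy3 and Pradc1 (log2 ratio 1.002) and Trim10 and Sema5a (-1.001), and just outside it Tnfaip2 and Cstb (0.999), Apbb2 (-0.999) and Ddah2 (-0.998).

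**Figure D1:**
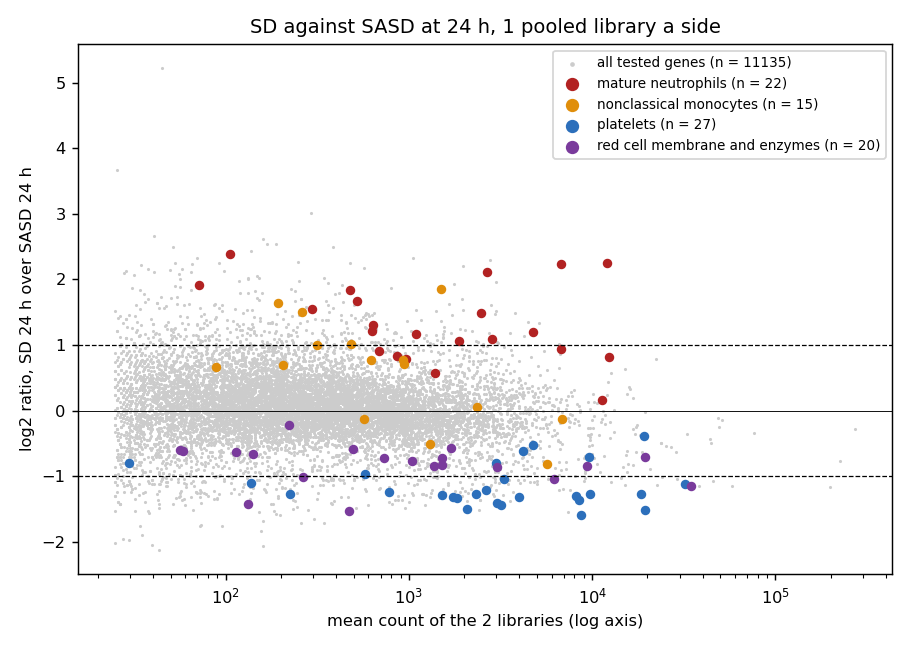
Log2 ratio of SD 24 h over SASD 24 h (vertical axis) against the mean count of the 2 libraries (horizontal axis, log scale), 1 point a gene for the 11135 tested genes, with members of 4 lists coloured and dashed lines at 2-fold. The 22 mature neutrophil genes lie above 0, and the 27 platelet and 20 red cell membrane genes below it, at low and high counts alike.

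Mature neutrophil genes were on the higher side. All 22 had a ratio above 1 with a counting interval that left out 1, 15 of them were at least 2-fold higher and 0 lower, and their median log2 ratio was 1.209 against 0.030 over all tested genes. Over all 11135 tested genes the counting interval lay wholly above 1 in 2984 and wholly below 1 in 2688. Their summed level was 10498 CPM in SD 24 h and 4767 CPM in SASD 24 h, or 1.003% and 0.398% of all counts. The largest gain in CPM of any gene was that of S100a9, whose protein pairs with S100A8 to form calprotectin. Its level was 1993 CPM in SD 24 h and 419 CPM in SASD 24 h, a ratio of 4.76 (4.575 to 4.96). In the remaining libraries S100a9 stood at 600 CPM in Con, at 679, 1313 and 4376 CPM at 6, 12 and 48 h of SD, and at 485, 397, 726 and 473.5 CPM at 6, 12, 48 and 120 h of SASD. The SD libraries thus stood above the SASD library of the same hour throughout, and from 12 h on above every SASD library. Its partner S100a8 was at 1123 and 237 CPM, a ratio of 4.73 (4.49 to 4.99).

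Receptors by which neutrophils are called out and sense their surroundings were on the same side. Csf3r, the receptor for the granulocyte growth factor G-CSF, was at 1714 CPM under SD and 973 CPM under SASD, a ratio of 1.76 (1.71 to 1.81). Cxcr2, the receptor for the chemokines that draw neutrophils out of the marrow, was at 702 and 306 CPM (ratio 2.30, 2.185 to 2.41). The formyl-peptide receptor gene Fpr2 had a ratio of 3.62 (3.02 to 4.365), and Lrg1, which encodes a secreted glycoprotein, 4.32 (3.98 to 4.69). Ly6g, the surface antigen used to sort mouse neutrophils, had 124 counts under SD and 19 under SASD (ratio 4.005, 2.46 to 6.88).

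The granule enzymes made by neutrophil precursors in the marrow were mostly too low to read at 24 h. Of 17 precursor and granule genes 8 passed the count minimum, so only those are counted: 3 were at least 2-fold higher, 0 lower. Elane, Ctsg, Mpo and Ms4a3, the earliest of these, had 1, 0, 7 and 0 counts in SD 24 h and 0 counts each in SASD 24 h. In SD 48 h they stood at 11.02, 7.53, 30.2 and 2.67 CPM. The later product Lcn2, an iron-binding lipocalin, was at 436 CPM under SD 24 h and 142 CPM under SASD 24 h (ratio 3.07, 2.86 to 3.30), while lactoferrin (Ltf) was at 10.6 and 15.3 CPM (0.693, 0.525 to 0.917).

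Alarmins and the interleukin-1 system followed. Of 9 S100 and alarmin genes that passed, 5 were at least 2-fold higher and 0 lower (median 1.623), S100a8 and S100a9 among them. Anxa1, a calcium-binding protein that curbs inflammation, was at 261 CPM under SD and 84.5 CPM under SASD (ratio 3.09, 2.82 to 3.39). S100a10 lay the other way at 0.702 (0.656 to 0.752). In the interleukin-1 and -18 system 4 of 16 genes were at least 2-fold higher and 0 lower (median 0.708). The cytokine gene Il1b was at 454 and 163 CPM (2.78, 2.60 to 2.97), the decoy receptor gene Il1r2 at 82.2 and 25.7 CPM (3.20, 2.71 to 3.79), and the co-receptor gene Il1rap at 106 and 49.9 CPM (2.13, 1.88 to 2.41). Naip5, the inflammasome sensor of bacterial flagellin, was the fourth, at 2.07 (1.66 to 2.60).

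Cytokine transcripts themselves were sparse. Of 29 cytokine and chemokine genes 12 passed the count minimum, with 2 at least 2-fold higher and 0 lower. These were the myeloid chemokine genes Ccl6, at 464 CPM under SD and 162 CPM under SASD (ratio 2.865, 2.68 to 3.06), and Ccl9, at 99.5 and 35.35 CPM (2.82, 2.44 to 3.26). The gene of the T-cell cytokine interferon gamma, Ifng, had 11 and 8 counts, Il6 had 3 and 2, Il10 had 1 and 0, and Csf2 and Cxcl1 had 0 in both. A difference in these was not detectable at this depth. Tnf, with 32 and 6 counts, had a ratio of 3.27 (1.35 to 9.575) but lay under the count minimum. Among their receptors 8 of 27 genes were at least 2-fold higher and 0 lower. Csf2ra and Csf2rb, subunits of the GM-CSF receptor, had ratios of 2.86 (2.595 to 3.16) and 2.31 (2.15 to 2.49), Csf2rb being uncertain because the similar Csf2rb2 lies beside it.

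Monocyte genes were higher as well, and by less. Among 18 classical monocyte genes 6 were at least 2-fold higher and 0 lower, with a median log2 ratio of 0.843. Ccr2, the chemokine receptor that defines these cells, was at 524 CPM in SD 24 h and 231 CPM in SASD 24 h (ratio 2.27, 2.14 to 2.40). Its level was 138 CPM in Con, 169, 132 and 509 CPM at 6, 12 and 48 h of SD, and 212, 73.4, 419 and 351 CPM at 6, 12, 48 and 120 h of SASD. The SD 24 h library thus held the highest Ccr2 level of the 10, close to SD 48 h. Ly6c2, the surface antigen of classical monocytes, had a ratio of 2.08 (1.845 to 2.35), and Cd14, the co-receptor for bacterial lipopolysaccharide, one of 4.90 (3.69 to 6.61). Lyz2, lysozyme, showed the second largest gain in CPM of any gene, from 1800 to 3093 CPM, with a ratio of 1.72 (1.68 to 1.755). F13a1, coagulation factor XIII, was the member on the other side, at 0.878 (0.841 to 0.917).

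Nonclassical monocyte genes showed another course over time. Of 15 that passed, 4 were at least 2-fold higher at 24 h and 0 lower, with a median log2 ratio of 0.710, but the medians were -0.444 at 6 h, 0.184 at 12 h and -0.424 at 48 h. The summed level of the list did not follow the median at 24 h, being 2565 CPM in SD and 2645 CPM in SASD. Cx3cr1, the fractalkine receptor by which these cells patrol vessels, was at 128.5 CPM in SD 24 h and 75.4 CPM in SASD 24 h (ratio 1.70, 1.535 to 1.89). Its remaining levels were 58.5 CPM in Con, 57.9, 56.2 and 101 CPM at 6, 12 and 48 h of SD and 85.4, 44.3, 133 and 119 CPM at 6, 12, 48 and 120 h of SASD. Ear2, a ribonuclease gene of these cells, was at 30.4 CPM against 9.64 CPM (3.16, 2.40 to 4.20), and the latter was its lowest value of the 10 libraries. Treml4 was at 40.3 and 14.1 CPM (2.86, 2.28 to 3.625), again with SASD 24 h the lowest. In 9 of the 15 genes SASD 24 h was the lowest library, which was so in 20.8% of all tested genes. Cebpb, a transcription factor that neutrophils use as well, was the highest member, at 3.63 (3.28 to 4.03). Of the 15 genes 4 had a log2 ratio below 0, and in 3 the counting interval lay wholly below 1. Among these were Pou2f2 (ratio 0.567, 0.547 to 0.5885) and Cd36 (0.7005, 0.648 to 0.757).

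**Figure D2:**
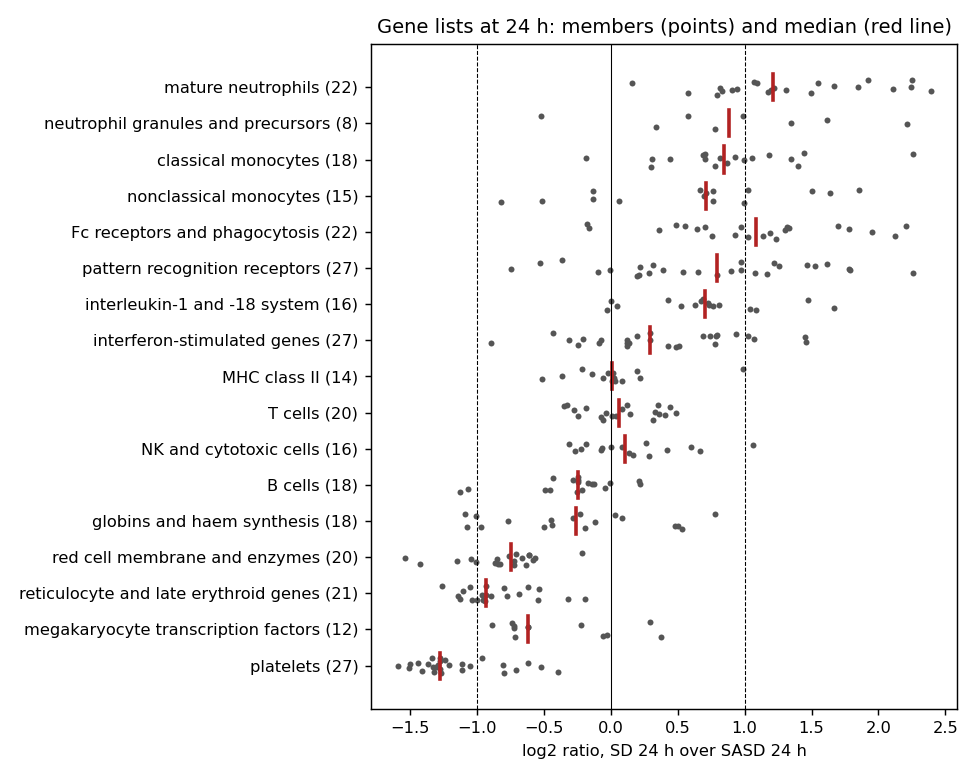
Log2 ratio of SD 24 h over SASD 24 h (horizontal axis) for the members of 17 gene lists that passed the count minimum, 1 grey point a gene, with the list median as a red line, the number of genes in brackets, and dashed lines at 2-fold. Medians run from 1.209 in mature neutrophils down to -1.272 in platelets, with T cells (0.059) and MHC class II (0.012) near 0.

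The receptors that phagocytes use to sense and engulf were among the higher groups. Of 22 Fc receptor and phagocytosis genes 12 were at least 2-fold higher and 0 lower (median 1.082), and of 27 pattern recognition receptor genes 10 were higher and 0 lower (median 0.794). The receptor genes Lilr4b and Lilrb4a, which are close copies and so uncertain one by one, had ratios of 4.62 (4.19 to 5.10) and 3.88 (3.605 to 4.19). Axl, a receptor kinase for the uptake of dying cells, was at 16.15 CPM under SD and 3.52 CPM under SASD (4.59, 2.96 to 7.43). Fcgr1, the high-affinity IgG receptor, was at 26.95 and 10.6 CPM (2.55, 1.96 to 3.37). Clec4e, a lectin that binds mycobacterial glycolipid, had a ratio of 2.78 (2.39 to 3.23). Tlr9, the sensor of bacterial DNA, lay the other way at 0.597 (0.533 to 0.668).

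Of 27 interferon-stimulated genes 4 were at least 2-fold higher and 0 lower (median 0.295): Ifi204 (ratio 2.77, 2.32 to 3.315), Oas2 (2.75, 2.34 to 3.26), Oasl2 (2.10, 1.93 to 2.30) and Rtp4 (2.05, 1.70 to 2.48). Rsad2, viperin, the lowest of that list at 0.538 (0.528 to 0.548), is also on the reticulocyte list and stood over the libraries as red cell genes did. It was at 1813 and 3369 CPM in the 24 h pair, at 119.8 CPM in the control and at 91.9 and 92.8 CPM at 48 h. Among 21 genes induced by glucocorticoids 4 were higher and 0 lower (median 0.212), and these were Il1r2, Anxa1, Lcn2 and Cebpd, of which the first 3 also stand in the neutrophil, granule or alarmin lists. The NF-kB response list had 1 higher of 23, Ier3, and a median of 0.040. Over all tested genes 3.75% were higher, which is near 1 of 23. Immediate early genes had 2 higher of 22, Junb and Atf3, with a median of 0.473. Of 18 circadian clock genes Per2 (2.30, 1.72 to 3.11) and Nfil3 (2.31, 1.85 to 2.90) were at least 2-fold higher, 0 were lower, and the median was -0.154; the clock activator gene Arntl was at 1.09 (0.879 to 1.35).

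Among the highest single genes were several that myeloid cells are known to express, and of the 15 highest only G0s2 and Cd14 stood in a list. Prok2, a small secreted peptide of neutrophils, had 90 counts in SD 24 h and 0 in SASD 24 h. The lower end of its counting interval was 14.7-fold, and the ratio was 18.4 with SASD 24 h set at a floor of 3 counts. Snai1, a transcription repressor, had 50 counts and 1 count (ratio 30.7, 5.26 to 1236). Wfdc17, an antiprotease-like gene of myeloid cells whose similar copy Wfdc21 makes its count uncertain, had a ratio of 8.30 (6.015 to 11.75). Acod1, the enzyme that makes the antimicrobial metabolite itaconate, was at 5.66 (3.797 to 8.76), and Slfn4, a schlafen gene of myeloid cells, at 4.92 (4.525 to 5.36). The remaining 10 of the 15 highest, which include Cd14, had ratios from 4.90 (Cd14) to 7.67 (Aif1). Beside the S100 genes and Lyz2, the largest gains in CPM included Apoe, a lipid carrier of monocytes and macrophages, at 777.5 and 309 CPM (2.52, 2.40 to 2.65), Psap (1.55, 1.51 to 1.59) and the survival gene Mcl1 (1.48, 1.44 to 1.52).

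The remaining lists are likewise read against the 3.75% higher and 3.08% lower over all tested genes. Of 8 plasma cell genes 2 were higher and 0 lower: Jchain, the joining chain of secreted antibody, with 139 and 39 counts (2.19, 1.52 to 3.205), and Xbp1, a factor of the secretory pathway (2.31, 2.12 to 2.52). Of 11 dendritic cell genes 1 was higher, the growth factor receptor gene Flt3 (2.04, 1.57 to 2.68), and of 2 eosinophil genes that passed 1 was, Siglecf (2.17, 1.55 to 3.09). Basophil genes gave 0 of 3, MHC class I 0 of 16 and mitochondrially encoded genes 0 of 8. The oxidase and antioxidant list held 3 higher and 2 lower of 22. The higher ones were Txn1 (2.635, 2.27 to 3.065), Hmox1 (2.35, 1.91 to 2.92) and Gsr (2.19, 2.08 to 2.31), and the lower ones Srxn1 (0.415, 0.382 to 0.451) and catalase, Cat (0.485, 0.468 to 0.502), the latter also on the red cell list. In glycolysis 1 of 22 was lower, the hexokinase gene Hk1 (0.494, 0.4685 to 0.520). Of 20 heat shock and unfolded protein genes 3 were higher, and the one with the highest ratio was Hspa1b, at 72 and 14 counts (3.16, 1.765 to 6.06). Of 17 proliferation genes 2 were lower, Ube2c (0.401, 0.348 to 0.461) and Ccna2 (0.415, 0.279 to 0.612). Ube2c was also higher in haemoglobin-rich than in haemoglobin-poor libraries, the pair compared here left out, by 3.002 on the log2 scale. In that comparison the median of red cell membrane genes was 2.387, and the difference for Ccna2 was 2 or less. The part of haemoglobin content in the Ube2c ratio was not tested. In coagulation and complement 3 of 15 were higher, among them the complement receptor gene C5ar1 (2.08, 1.896 to 2.29), and 2 lower, F5 (0.399, 0.3815 to 0.418) and Cd59a (0.449, 0.3795 to 0.530).

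Some of the higher genes were neighbours. S100a4, S100a6, S100a8 and S100a9 lie within chr3:90603771-90695721, and all 4 were at least 2-fold higher. Ifitm2, Ifitm1, Ifitm3 and Ifitm6, membrane proteins that block virus entry and are similar enough to make single counts uncertain, lie within chr7:140954837-141017924, with log2 ratios of 1.456, 2.331, 1.145 and 2.488. Trem1, Trem3 and Treml4, receptors of myeloid cells, lie within chr17:48232768-48275360, at 1.219, 1.525 and 1.501. Coordinates are of mm10.

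Platelet genes formed a block on the lower side. All 27 that passed had a ratio below 1 with an interval that left out 1, 20 were at least 2-fold lower and 0 higher, and the median log2 ratio was -1.272. The interval lay wholly below 1 in 2688 of all 11135 tested genes. Their summed level was 13955 CPM in SD 24 h and 30300 CPM in SASD 24 h, or 1.33% and 2.53% of all counts. Itga2b, the αIIb chain of the fibrinogen receptor, was at 1332 CPM in SD 24 h and 3793 CPM in SASD 24 h, 0.351 times the SASD level (0.344 to 0.3585). Its level was 828 CPM in Con, 1853, 2387 and 915 CPM at 6, 12 and 48 h of SD, and 2560, 2449, 442 and 925 CPM at 6, 12, 48 and 120 h of SASD. The SASD 24 h library was thus the highest of the 10 and SD 24 h lay below all of the 6 and 12 h libraries. At 48 h the order was the other way round. SASD 24 h was the highest library for 22 of the 27 genes, against 18.6% of all tested genes.

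The parts of the platelet surface and granules were lower by similar amounts. Itgb3, the β3 partner of Itga2b, was at 739 CPM under SD and 1790 CPM under SASD (0.413, 0.401 to 0.425). The von Willebrand receptor genes Gp1ba, Gp5 and Gp9 were at 0.3998 (0.373 to 0.428), 0.377 (0.357 to 0.397) and 0.432 (0.408 to 0.456), and Vwf itself, the factor they bind, at 0.332 (0.321 to 0.342). Gp6, the collagen receptor, was at 0.413 (0.389 to 0.438), and Tubb1, the tubulin of the platelet rim, at 0.405 (0.393 to 0.418). The granule chemokine gene Ppbp was at 1404 and 3392 CPM (0.414, 0.4055 to 0.423). Pf4, platelet factor 4, missed 2-fold, at 404 and 620 CPM (0.6515, 0.624 to 0.680), as did Gng11 (0.698, 0.670 to 0.727) and Ctla2a (0.762, 0.747 to 0.778). The range over the 27 genes was -1.592 to -0.392 on the log2 scale.

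Genes near these in function or place stood with them. Of 12 megakaryocyte transcription factor genes 0 were 2-fold either way (median -0.618), the lowest being Zfpm1, a partner of GATA1, at 0.541 (0.488 to 0.599). Mpig6b, Ly6g6c and Ly6g6f lie side by side at chr17:35062693-35085610, the first being an inhibitory receptor of platelets. They were at 0.351 (0.331 to 0.372), 0.301 (0.249 to 0.362) and 0.307 (0.241 to 0.389). The platelet oxygenase genes Alox12 and Ptgs1, which make lipid mediators, were at 0.388 (0.376 to 0.3998) and 0.467 (0.427 to 0.511), so that of 17 eicosanoid genes 2 were higher and 3 lower. The endothelial and stromal list had 7 of 14 genes past the minimum, with 1 higher and 3 lower (median -0.881). The 3 were Myl9 and Esam, which platelets express, and Col1a1, at 32 and 43 counts. The defining endothelial genes Cdh5, Tek and Cldn5 had 12, 0 and 0 counts in SD 24 h and 9, 3 and 0 in SASD 24 h.

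Red cell genes were lower too, by less than platelet genes. Of 20 genes of the red cell membrane and enzymes 5 were at least 2-fold lower and 0 higher (median -0.742). Of 21 reticulocyte and late erythroid genes 7 were lower and 0 higher (median -0.929). Epb41, the protein 4.1R that ties spectrin to the membrane, was at 2760 CPM in SD 24 h and 6128 CPM in SASD 24 h (0.450, 0.444 to 0.457). Its level was 545 CPM in Con, 3258, 2081 and 437 CPM at 6, 12 and 48 h of SD, and 3386, 2480, 302 and 1286 CPM at 6, 12, 48 and 120 h of SASD. SASD 24 h was again the highest library, while SD 24 h lay among the 6 and 12 h libraries of both methods. SASD 24 h was the highest of the 10 in 19 of the 20 membrane genes and in 21 of the 21 reticulocyte genes. That was so in 18.6% of all tested genes. Alas2, the first enzyme of haem synthesis in red cells, was at 3751 and 7908 CPM (0.474, 0.468 to 0.481). Aqp1, the water channel, was the lowest member at 0.3435 (0.2998 to 0.393), and Ube2o, the enzyme that clears ribosomes from reticulocytes, was at 0.417 (0.4085 to 0.426).

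The globins were lower as well. Hba-a1 was at 20711 CPM under SD and 35197 CPM under SASD (0.588, 0.585 to 0.592), and Hbb-bs at 29343 and 35751 CPM (0.821, 0.816 to 0.825). Each has a near-identical copy, Hba-a2 at 0.707 (0.698 to 0.717) and Hbb-bt at 0.738 (0.728 to 0.748), and the split between copies is uncertain. In the globin and haem list 3 of 18 genes were at least 2-fold lower and 0 higher (median -0.256): Alas2, Fech (0.4695, 0.458 to 0.481), which inserts the iron, and Slc25a37 (0.498, 0.486 to 0.509), which brings iron into mitochondria. Of the 18 genes 6 had a log2 ratio above 0, so the haem list as a whole did not stand on one side.

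**Figure D3:**
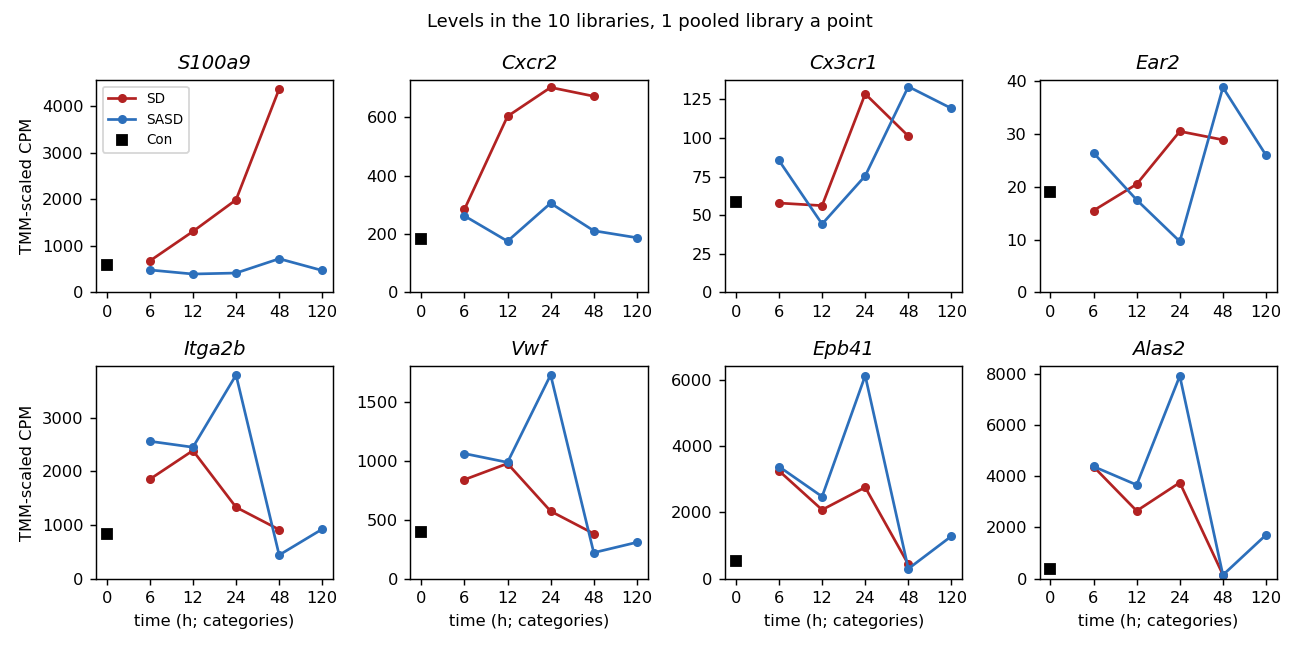
TMM-scaled CPM (vertical axis, each panel on its own scale from 0) of 8 genes in the 10 libraries by time in hours (horizontal axis, equal steps), with 1 pooled library a point, SD in red, SASD in blue and Con in black. S100a9 and Cxcr2 are above SASD from 12 h on under SD, Ear2 dips in SASD 24 h, and Itga2b, Vwf, Epb41 and Alas2 peak in SASD 24 h, at 3793 CPM for Itga2b against 1332 CPM in SD 24 h.

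The 15 lowest genes had ratios from 0.211 to 0.307 and few counts in SD 24 h, from 13 to 227. Bean1 had 88 and 230 counts (0.235, 0.1815 to 0.301), and Ache, the acetylcholinesterase that red cells carry on their surface, 227 and 461 (0.302, 0.257 to 0.355). Gm42722 and Gm12158 are antisense genes, and as the counting did not use strand their reads cannot be told from those of the genes they overlap. In the 343 lower genes SASD 24 h was the highest of the 10 libraries in 311 (90.7%, against 18.6% of all tested genes). SD 24 h was the lowest in 17 (4.96%, against 5.77%). In the 418 higher genes SD 24 h was the highest in 159 (38%, against 8.08%), and SASD 24 h the lowest in 159 (38%, against 20.8%). Since these genes were picked for the 24 h ratio, part of that order is given by the choice.

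T cell and NK genes had medians near 0, and most B cell genes were slightly lower under SD. Of 20 T cell genes 0 were 2-fold either way (median 0.059), and of 16 NK and cytotoxic genes 1 was higher, the receptor gene Klra8 at 2.11 (1.68 to 2.68), and 0 lower (median 0.110). Of 18 B cell genes 2 were at least 2-fold lower and 0 higher (median -0.245): the transcription factor genes Pax5, at 739 and 1547 CPM (0.478, 0.464 to 0.492), and Ebf1, at 280 and 610 CPM (0.4585, 0.437 to 0.481). In 14 of the 18 the counting interval lay wholly below 1, as it did in 2688 of all 11135 tested genes. On library totals the B cell median was -0.050 and the T cell median 0.253. Cd79a, a chain of the B cell receptor, was at 0.997 (0.962 to 1.03), so the 2 factors did not share its level. All 14 MHC class II genes stayed within 2-fold (median 0.012).

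The higher and the lower genes stood differently at the other shared times, which hold separate pools. The same 2-fold rule gave 12 higher and 100 lower genes at 6 h (0.104% and 0.867% of those tested there), 312 and 9 at 12 h (2.76% and 0.0797%), and 532 and 221 at 48 h (4.22% and 1.75%). Of the 418 genes higher at 24 h, 155 were also at least 2-fold higher at 12 h, which is 37.1% of the 418 and 49.7% of the 312. At 48 h 133 were higher, which is 31.8% of the 418 and 25% of the 532, and at 6 h 0 were. Of the 343 lower genes 0 were lower at 12 h, 4 at 6 h and 3 at 48 h, while 50 were at least 2-fold higher at 48 h. Mature neutrophil genes had medians of 0.105, 1.427, 1.209 and 2.192 at 6, 12, 24 and 48 h. Platelet genes had -0.227, -0.174, -1.272 and 0.884.

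**Figure D4:**
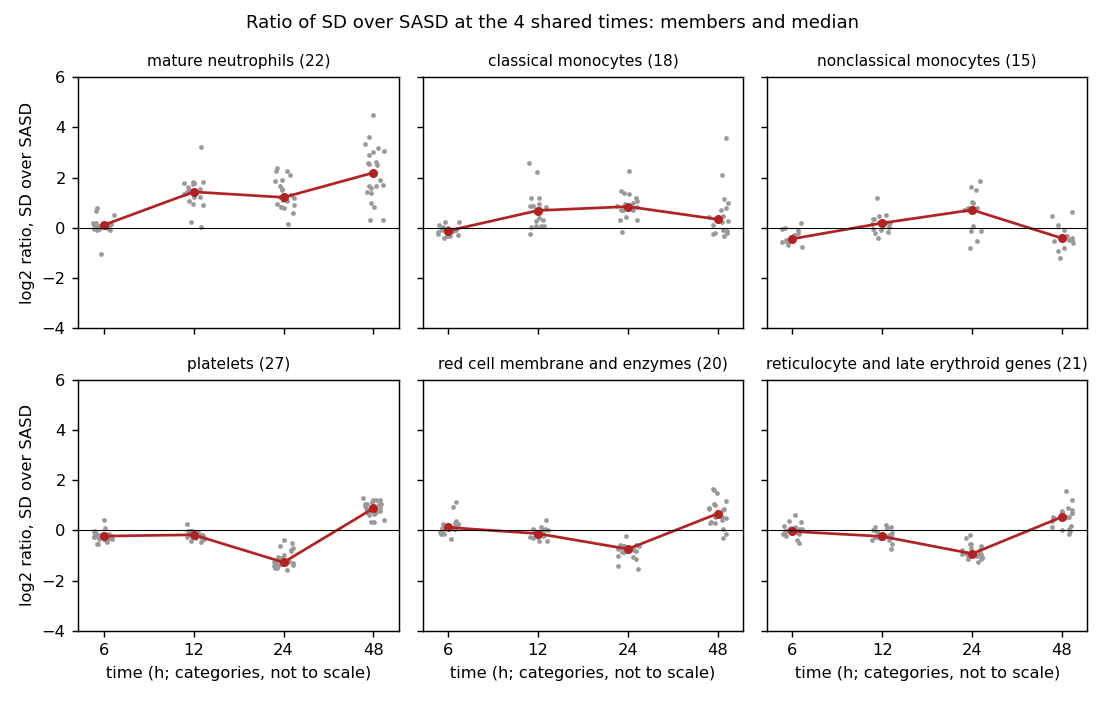
Log2 ratio of SD over SASD (vertical axis) at 6, 12, 24 and 48 h (horizontal axis, equal steps) for the members of 6 lists, 1 grey point a gene, with the list median in red. The neutrophil median is above 1 from 12 h on, and the platelet, red cell and reticulocyte medians are below 0 at 24 h (-1.272, -0.742 and -0.929) and above 0 at 48 h (0.884, 0.673 and 0.541).

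Some of the higher genes were 2-fold higher at 12 h too, and some had a ratio near or below 1 there. Of the 418 higher genes 49 had a log2 ratio below 0 at 12 h. A group of 166 had a log2 ratio of at least 1 at 12 h as well, at any count there, and held 14 of the 22 mature neutrophil genes. Another 106 had a log2 ratio under 0.3 at 12 h, among them Ly6c2, the nonclassical genes Ear2 and Adgre4, Naip5, and Idh1, Crip1 and Sem1. Sem1, a small proteasome subunit, was at 40.7 CPM in SD 24 h and 12.4 CPM in SASD 24 h, the latter its lowest of the 10 libraries. The median exon length was 2855 bases in the first group, 2241.5 in the second and 4471 over all tested genes.

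Whether the 24 h ratio stood apart from that at 6, 12 and 48 h was tested across 8 libraries with edgeR's quasi-likelihood test of the interaction, with time as a block and 2 residual degrees of freedom. At an adjusted p under 0.05 0 of 13370 genes were called (0%), with a lowest adjusted p of 0.522. At an unadjusted p under 0.05 there were 604 genes higher at 24 h (4.52%) and 617 lower (4.61%). DESeq2 on the same libraries called 10 genes, all lower at 24 h, of which Vwf, Gp5, Tubb1 and Cavin2 were of the platelet list, and limma called 0. Within the platelet list 18 of 27 genes had an unadjusted edgeR p under 0.05 and a lower 24 h ratio, with a median interaction of -1.396 on the log2 scale. The count was 13 of 21 in the red cell membrane list (median -1.016) and 14 of 22 in the reticulocyte list (-0.998). On the higher side nonclassical monocytes had 11 of 16 (median 1.137), classical monocytes 3 of 18 (0.531) and mature neutrophils 1 of 22 (0.002). Each fit that left out a pair had fewer residual degrees of freedom than the fit of all 8 libraries. Without the 48 h pair, whose libraries stood apart in haemoglobin, edgeR still called 0 genes. Over all genes 5.39% were then higher and 4.74% lower at an unadjusted p under 0.05. The counts and medians were then 22 of 27 and -1.0 for platelets, 13 of 21 and -0.768 for red cell membrane genes, 14 of 22 and -0.741 for reticulocyte genes, 11 of 16 and 1.007 for nonclassical monocytes, 7 of 18 and 0.582 for classical monocytes, and 3 of 22 and 0.518 for mature neutrophils. Without the 12 h pair 7 of 18 classical monocyte genes were higher at 24 h, against 3.23% of all genes. Without the 6 h pair the mature neutrophil median turned to -0.458, with 1 gene higher and 5 lower. Over all genes 4.58% were higher and 6.99% lower in that fit. Genes of a list share their libraries and are not independent, so these counts describe the list and do not test it.

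The same contrast in the 6 libraries at 6, 12 and 48 h, which share no mouse pool with the 24 h pair, was fitted in the same way. Here edgeR called 0 of 13579 genes at an adjusted p under 0.05 (0%), with a lowest adjusted p of 0.278. At an unadjusted p under 0.05 there were 505 higher (3.72%) and 165 lower genes (1.22%). Of the 22 mature neutrophil genes 20 were among the higher ones, with a median log2 ratio of 1.347. Their number was 11 without the 12 h pair (median 1.156), 16 without the 48 h pair (0.755) and 20 without the 6 h pair (1.914). Over all genes the higher share in these fits was 1.44%, 1.83% and 7.34%. They had fewer residual degrees of freedom than the fit of all 6 libraries, so the counts are not directly comparable. Of the platelet genes 0 were on either side in the fit of all 6 libraries (median 0.137). Without the 48 h pair 4 were lower (median -0.240), against 1.43% of all genes. DESeq2 called 36 genes, 32 of them higher under SD.

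Several properties of the libraries moved with the 24 h ratio. Gm42418, a locus that overlaps ribosomal RNA sequence, took 2.95% of the counts of SASD 24 h, the highest of the 10 libraries, and 1.51% of those of SD 24 h, and Lars2 followed it (0.451, 0.444 to 0.457). Ribosomal protein genes took 2.545% of SASD 24 h, the lowest of the 10, and 3.36% of SD 24 h. Ratios were lower for longer genes: over 10 bins of protein-coding genes by exon length the median log2 ratio was 0.320 in the shortest (243 to 1891 bases) and -0.130 in the longest, and 10.8% of the shortest bin were at least 2-fold higher against 1.71% of the longest. The trend at 48 h was 0.185 to -0.149, and at 12 h it was 0.031 to -0.016. Within a method, from the shortest to the longest bin, SASD 24 h over SASD 12 h ran from -0.226 to 0.168. SD 24 h over SD 12 h ran from -0.007 to 0.037. The 48 h libraries were not compared in this way. The part of transcript length in the 24 h ratios was not tested beyond a correction by a lowess curve on exon length, chosen after seeing the data, under which 346 genes were higher and 361 lower, 322 and 297 of them shared with the uncorrected calls. The neutrophil median was then 1.088, the nonclassical monocyte median 0.704 and the platelet median -1.298. Of the 106 higher genes with a log2 ratio under 0.3 at 12 h 66 stayed 2-fold higher.

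**Figure D5:**
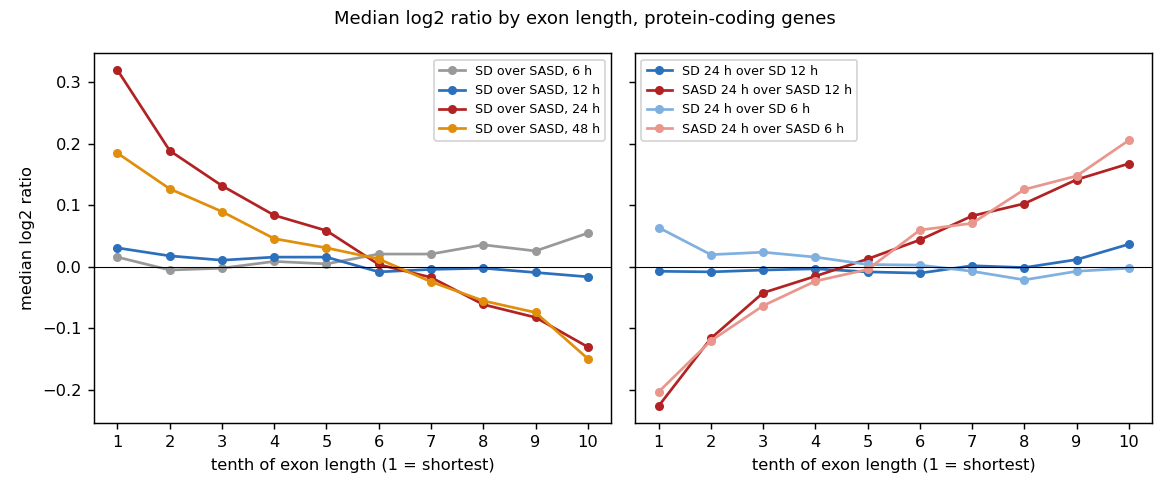
Median log2 ratio (vertical axis) over 10 equal bins of protein-coding genes by exon length (horizontal axis, 1 the shortest), for SD over SASD at 4 times (left) and for the 24 h libraries over those at 12 and 6 h of the same method (right). The 24 h ratio runs from 0.320 to -0.130, and SASD 24 h over SASD 12 h runs from -0.226 to 0.168 while SD 24 h over SD 12 h stays between -0.010 and 0.037.

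Red cell and platelet RNA also moved with the haemoglobin content of the libraries. Between the haemoglobin-rich libraries at 6, 12 and 120 h and the poor ones (Con and 48 h), neither of which holds the 24 h pair, the median log2 difference was 1.152 for platelet genes, 2.387 for red cell membrane genes and -0.001 over all tested genes. For the 343 genes lower at 24 h it was 1.058, and 29 of them differed by more than 2. The haemoglobin-poor libraries were also the deepest of the 10, with 27501393 (Con), 24818986 (SASD 48 h) and 13927134 counts (SD 48 h). Depth and haemoglobin content cannot be told apart in this difference. The haemoglobin share of SASD 24 h was 6.96% against 5.64% in SD 24 h, and its part in the platelet and red cell results was not tested. With the haemoglobin genes left out of the scaling, 420 genes were higher and 343 lower.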

How the data were processed

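The deposited values are raw counts of read pairs in exons, summed by the authors for each gene with featureCounts 2.0.3 and no strand setting, per the file headers, after Trimmomatic 0.39 and STAR 2.7.9a alignment to mm10, per the submitters' processing notes. They cover 32285 genes in 10 libraries. TruSeq v2 libraries do not mark strand. From these counts TMM factors over all 10 libraries (edgeR 4.0.16, R 4.3.3) gave CPM. The 24 h ratio was ranked as log2 with a prior count of 2, and single ratios have no prior. Tests across times used edgeR's quasi-likelihood test with Benjamini-Hochberg adjustment over genes that averaged 10 counts or more, and DESeq2 1.42.0 and limma 3.58.1 as alternatives. The p-values set an effect against the variation of the SD over SASD ratio among the shared times other than 24 h. As no method and time had a replicate library, that variation holds both real change over time and noise between pools. These cannot be told apart, so a lack of calls does not show that a difference is absent. Gene positions and exon lengths came from GENCODE M21 (GRCm38). The fits were also run on simulated counts, with genes independent of each other and the same spread set for every gene. Apart from set changes, the simulated ratio of SD over SASD did not vary between times. The simulation therefore does not show how the fits behave on these libraries.

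Named were the 15 highest and 15 lowest genes, the 10 largest gains and losses of CPM, and the most abundant and most changed members of 38 lists. The members and the lists were chosen with earlier results of these data known. Of 709 list genes 700 matched by symbol, and 33 symbols on more than 1 gene were left out. Alternatives were other scalings, count minimums, prior counts, tools, left-out times and a length correction, the last chosen after seeing the data.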

Additional observations from a re-analysis of the deposited data

Results flagged for a closer look

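For 4 gene lists the 24 h and 48 h medians of the log2 ratio of SD over SASD pointed opposite ways; the change between these times was not itself tested. The platelet median was -1.272 at 24 h and 0.884 at 48 h. The red cell membrane and enzyme median was -0.742 and then 0.673, and that of reticulocyte and late erythroid genes -0.929 and then 0.541. The endothelial and stromal list, of which 7 genes passed the count minimum at 24 h, stood at -0.881 and then 0.562. The adult haemoglobin share was 5.64% and 6.96% in the 24 h libraries against 0.316% and 0.275% in the 48 h libraries, and its part in these changes was not tested.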

How the results depend on the processing

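The counts of 2-fold genes (418 higher, 343 lower) stayed within 1.5 times under TMM of the pair alone, DESeq2 size factors, haemoglobin genes left out, a minimum of 10 counts, a prior count of 10 and the length correction. They were 718 and 173 on library totals, where every ratio shifts by the missing factor. With a minimum of 100 counts they were 262 and 227, and with no minimum 1234 and 1129, where fewer or more genes enter. With the near bound of the interval past 2-fold they were 166 and 140, a stricter rule by construction. On library totals the medians moved to 1.403 for mature neutrophils, 1.037 for classical monocytes, -1.077 for platelets, -0.548 for red cell membrane genes, -0.735 for reticulocyte genes, -0.050 for B cells and 0.253 for T cells, all in the same direction. The length correction moved the median of neutrophil granule and precursor genes to 0.654. The T cell median turned from 0.059 to -0.047 with the length correction, and the cause was not tested. The corrected value lies outside -0.032 to 0.156, the medians of the lower and upper interval ends of its genes. Over the 10 lists for which alternatives were run, 81 of 90 alternative medians stayed within such a range. For the 50 named genes 380 of 433 alternative values stayed within their counting interval, and 0 named genes reversed. The interaction gave 0 calls in edgeR and limma, 10 with DESeq2 and 130 in edgeR with no count minimum. The fit of the other times gave 0, 36 with DESeq2, 280 with no minimum and 298 without the 6 h pair, and the cause was not tested. Fits that left out a pair had fewer residual degrees of freedom than the main fits. The labels carry no replicate numbers, and both fits paired the libraries of the same hour through time as a block. Depth limits genes under about 25 counts, which hold most cytokines.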
